A study of Mus musculus with 8 samples.

Results

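The transcription factors that carry inflammatory signals to the genome were followed in the hearts of mice 24 hours after myocardial infarction (MI). The 10 genes were Nfkb1, Nfkb2, Rel and Relb of the NF-kB family, their partner Bcl3, Stat3, Irf1, Cebpb, Cebpd and Spi1. They were taken by name, through the array probes that the scanner files assign to a RefSeq transcript of each gene. Where a gene had several probes, the brightest one that was well above background on 4 or more arrays was used. This gave all 10 genes, out of 15156 RefSeq genes with such a probe. The 10 genes had 14 probes on the array, and 13 of these were tested.

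RNA came from the ventricles of male C57BL\6 mice and was hybridized to Agilent SurePrint G3 mouse arrays with 1 colour, 1 array per mouse. Of these mice, 4 had undergone permanent ligation of the anterior interventricular artery (MI mice), and 4 had undergone the operation without ligation (sham-operated mice). All were sampled 24 hours after surgery, so the sham group had also been operated on and no unoperated heart was compared. Whole ventricles were used, and RNA of cardiomyocytes, of other resident cells and of infiltrating leukocytes was measured together.

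NF-kB factors are dimers of Rel proteins that are held in the cytoplasm by inhibitory proteins of the IkB family. Signals from toll-like receptors or from cytokines such as TNF and interleukin-1 activate kinases that release them, and some of the inhibitors and subunits are themselves NF-kB target genes. Nfkb1 and Nfkb2 encode the precursors of p50 and p52, Rel encodes c-Rel, Relb encodes the partner of p52 in the non-canonical pathway, and Bcl3 encodes an atypical IkB protein that works with p50 and p52 in the nucleus. Stat3 is activated by cytokines of the interleukin-6 family, Irf1 is induced by interferon gamma, and the C/EBP factors Cebpb and Cebpd drive acute phase genes. Spi1 encodes PU.1, which is required for the development of myeloid cells.

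The RefSeq promoter table gave 9 windows for 6 of the 10 genes, among them 3 starts of Nfkb2 and 2 of Irf1. Each window holds the 250 bases before an annotated start. One window each is shown for Nfkb2, Rel and Irf1, since these were the 3 genes in which a match to the kappaB consensus was found, and for Nfkb2 and Irf1 it is that of the first start in the direction of the gene. Sequences are of build GRCm38.p6, read 5′ to 3′ in the direction of the gene. The kappaB consensus was GGGRNWYYCC, where R is A or G, W is A or T, Y is C or T and N is any base. Capitals mark matches to this consensus or to the STAT motif TTCNNNGAA, on either strand.
Nfkb2, chr19:46304487-46304736, plus strand: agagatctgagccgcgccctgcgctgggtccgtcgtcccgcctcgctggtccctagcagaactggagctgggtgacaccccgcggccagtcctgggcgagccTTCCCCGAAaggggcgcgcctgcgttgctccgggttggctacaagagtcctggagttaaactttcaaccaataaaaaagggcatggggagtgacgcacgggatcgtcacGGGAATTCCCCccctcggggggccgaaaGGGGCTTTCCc
Rel, chr11:23770970-23771219, minus strand: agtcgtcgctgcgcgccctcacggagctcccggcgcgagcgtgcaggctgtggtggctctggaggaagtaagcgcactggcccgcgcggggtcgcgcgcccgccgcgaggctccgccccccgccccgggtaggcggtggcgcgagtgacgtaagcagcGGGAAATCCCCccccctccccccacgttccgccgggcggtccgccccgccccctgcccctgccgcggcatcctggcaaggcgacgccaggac
Irf1, chr11:53769764-53770013, plus strand: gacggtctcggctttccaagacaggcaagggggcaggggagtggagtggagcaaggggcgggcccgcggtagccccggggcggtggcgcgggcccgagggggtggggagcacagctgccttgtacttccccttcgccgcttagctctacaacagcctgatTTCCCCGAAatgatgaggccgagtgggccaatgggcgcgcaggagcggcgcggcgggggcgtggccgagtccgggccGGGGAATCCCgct

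In this window of Nfkb2 the match GGGAATTCCC began 39 bases before the start and GGGGCTTTCC began 11 bases before it. In Rel the match GGGAAATCCC lay 92 bases before the start, and in the Irf1 window the match GGGGAATCCC lay 13 bases before it. The other 2 windows of Nfkb2 held 1 kappaB match each, and the other Irf1 window held no match to any of the motifs searched. No kappaB match was found in the windows of Cebpb, Stat3 and Bcl3. The windows shown for Nfkb2 and Irf1 held the same STAT match, TTCCCCGAA, at 148 and 90 bases before the start. The kappaB consensus was chosen after seeing the data, whereas the wider NF-kB motif given below was planned. The consensus was present in 5 of the 9 windows of these genes. It was present in 3.899% of the 32851 promoter windows of this length. By gene it was present in 3 of 6, since all windows of Nfkb2 held it, and no share by gene was computed for all promoters. The GC content of the 9 windows was 60.8% to 81.6%, and the shares of all windows were not matched for it. The STAT motif was present in 2 of the 9 against 7.02%. The wider NF-kB motif GGGNNNNNCC was present in 7 of the 9 windows against 45.8% of all. The C/EBP motif TTNNGNAA was present in 2 of the 9 windows against 36.85% of all, the PU.1 motif GAGGAAG in 1 against 10.61%, and the IRF motif GAAANNGAAA in 0 against 2.977%. Where motifs overlapped each was counted. These matches describe letters in the window, and binding was not measured.

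Probe signals are given as log2 normalized signals on the scale of the spike-in normalization that the authors used. Calls required a change of more than 2-fold together with a Benjamini-Hochberg adjusted p in limma, over all 34038 tested probes, of less than 0.05. All 10 factors were higher on average in MI mice than in sham-operated mice. Relb, Bcl3 and Spi1 passed both thresholds, and Nfkb2, Rel and Irf1 passed the adjusted p alone. Among all genes, 4.06% were called as higher and 7.74% had an adjusted p under 0.05 in this direction, against 3 and 6 of the 10 factors. The groups did not overlap, with MI higher, in 5 of the 10 factors and in 9.45% of all genes. In either direction, 3.48% of all tested probes were called. The 10 genes were picked by function with results known, so the difference between these shares was not tested. The median log2 fold change was 0.84 for the factors and 0.12 for all tested probes. With the median of all probes subtracted, the log2 fold changes of the factors lay between 0.24 for Cebpb and 1.48 for Spi1. Of the 10 genes, 8 were well above background on all 8 arrays, and of these 2 were called, 4 had an adjusted p under 0.05 and 3 had groups that did not overlap. Rel and Spi1 were well above background on 4 MI arrays and on 1 sham array, so that they entered the test through the group in which they were high.

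**Figure D1:**
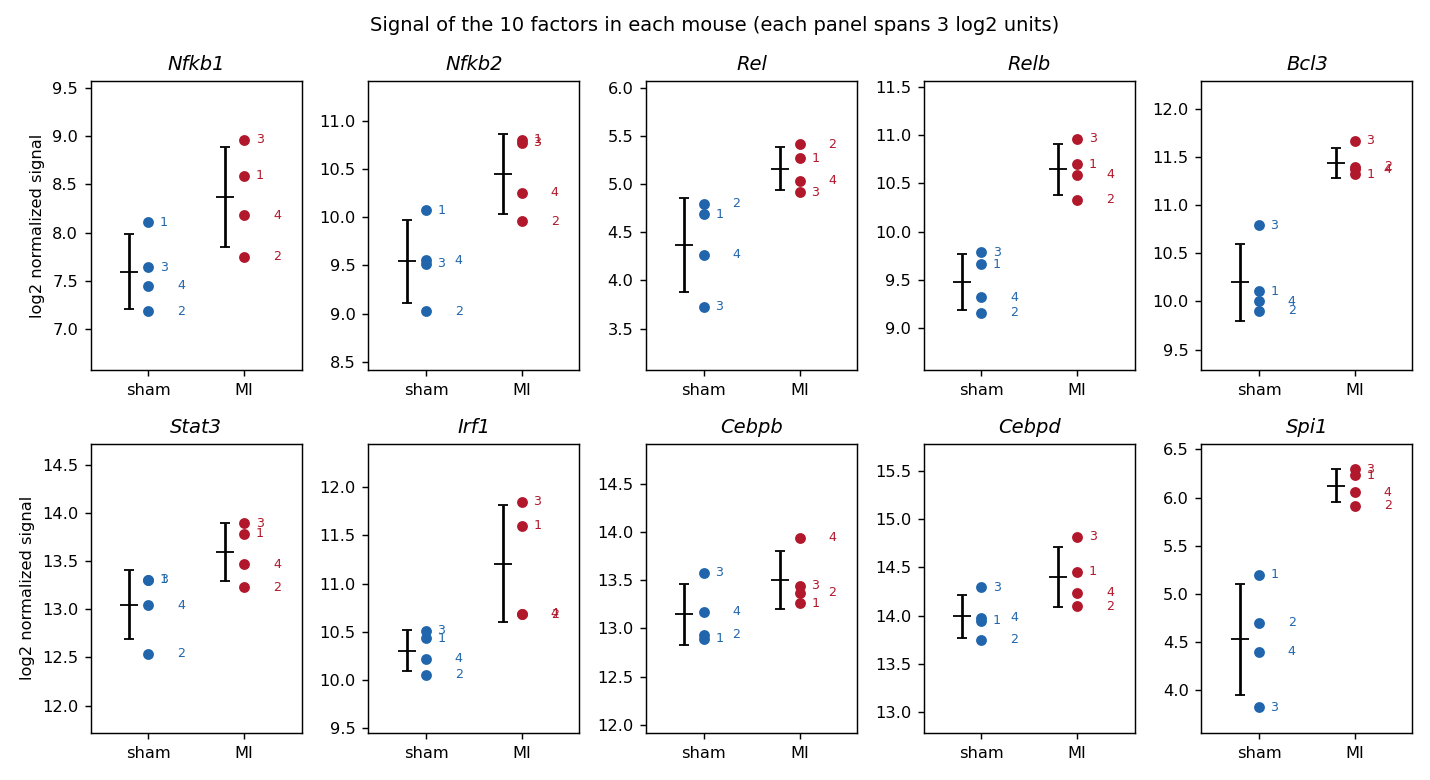
Log2 normalized signal (vertical axis) of each factor in the 4 sham-operated mice (blue) and the 4 MI mice (red), with mouse numbers beside the points and the mean ± SD at the left of each group. Each panel spans 3 log2 units, and in Rel, Relb, Bcl3, Irf1 and Spi1 every MI mouse lies above every sham-operated mouse.

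Among the genes of the Rel proteins, Relb was the one that passed both thresholds. Its log2 signal was 10.70, 10.33, 10.96 and 10.59 in MI mice 1 to 4, and 9.66, 9.16, 9.78 and 9.32 in sham-operated mice 1 to 4. The lowest MI mouse stood above the highest sham-operated mouse, and the groups did not overlap. The means were 10.65 ± 0.26 and 9.48 ± 0.29 (SD, n = 4 each), a 2.24-fold difference (95% interval 1.65 to 3.05, adjusted p = 0.000633, exact permutation p = 0.0286, two-sided). This exact p is the smallest that 4 against 4 mice allow. A second Relb probe gave 2.36-fold (adjusted p = 0.00049). In the 2 rows of the slide, each with 2 arrays of each group, Relb was 2.15-fold and 2.34-fold higher.

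Nfkb2, the precursor of the partner of RelB, was 10.80, 9.96, 10.77 and 10.26 in MI mice and 10.07, 9.02, 9.52 and 9.55 in sham-operated mice on the log2 scale. MI mouse 2 lay below sham-operated mouse 1, so that the groups overlapped. The difference was 1.87-fold (95% interval 1.33 to 2.64, adjusted p = 0.0183, exact permutation p = 0.0571). The adjusted p rose above 0.05 without MI mouse 1 (0.0733), MI mouse 3 (0.0536) or sham-operated mouse 2 (0.0699). Without MI mouse 2 or sham-operated mouse 1 the log2 fold change was 1.07 and 1.08, and the gene then passed both thresholds.

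Nfkb1, the precursor of p50, was 8.59, 7.75, 8.96 and 8.18 in MI mice and 8.11, 7.18, 7.64 and 7.45 in sham-operated mice. The order of the MI mice was the same as in Relb, with mouse 3 highest and mouse 2 lowest, and the groups overlapped. The difference of 1.71-fold (95% interval 1.20 to 2.45) had an adjusted p of 0.0579 and an exact permutation p of 0.0571. The adjusted p fell under 0.05 without MI mouse 2 (0.0195), MI mouse 4 (0.0447) or sham-operated mouse 1 (0.0182). A second probe for the same transcript gave 1.17-fold (adjusted p = 0.632), so the probes of Nfkb1 disagreed on the size of the change. In sham-operated mice this second probe was the brighter, with a mean of 7.79 against 7.59. The mean over the probes of the gene gave a log2 fold change of 0.50 (adjusted p = 0.192).

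The probe of Rel was near background, with log2 signals of 5.27, 5.41, 4.91 and 5.03 in MI mice and 4.68, 4.80, 3.73 and 4.27 in sham-operated mice. The groups did not overlap, although the lowest MI mouse stood close to the highest sham-operated mouse. The difference was 1.73-fold (95% interval 1.24 to 2.41, adjusted p = 0.0359, exact permutation p = 0.0286). The adjusted p exceeded 0.05 without MI mouse 1 (0.0877), MI mouse 2 (0.0834), sham-operated mouse 3 (0.153) or sham-operated mouse 4 (0.075).

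Bcl3 was the other called factor that was well above background on all arrays. It measured 11.32, 11.39, 11.67 and 11.37 in MI mice and 10.10, 9.90, 10.79 and 9.999 in sham-operated mice. The MI mice lay close together, and sham-operated mouse 3 stood above the other sham-operated mice but below every MI mouse. The means were 11.44 ± 0.16 and 10.20 ± 0.40 (SD, n = 4 each), a 2.36-fold difference (95% interval 1.72 to 3.23, adjusted p = 0.000393, exact permutation p = 0.0286). In the slide rows the difference was 2.55-fold and 2.18-fold.

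Rela, which encodes the p65 subunit that pairs with p50 in most cells, was 1.28-fold higher in MI mice (adjusted p = 0.401). The inhibitors and feedback proteins of NF-kB were measured in 9 genes, all of them higher on average in MI mice, and 3 of the 9 were called. These were Nfkbid (2.99-fold, adjusted p = 3.1e-05) and Nfkbie (2.54-fold, adjusted p = 0.000237), which encode IkB proteins, and Tnfaip3 (2.40-fold, adjusted p = 0.000635), which encodes the ubiquitin editing enzyme A20. Nfkbiz, another nuclear IkB protein, rose 1.75-fold (adjusted p = 0.0211). Nfkbia, which encodes the classical inhibitor IkBa, showed 1.25-fold (95% interval 0.912 to 1.71, adjusted p = 0.458). In the list of 11 kinases and adaptors, 1 gene was called and 3 passed the adjusted p. Map3k14, the kinase that starts the non-canonical pathway of Nfkb2 and Relb, rose 1.94-fold (adjusted p = 0.0046) and Ripk1 rose 1.77-fold (adjusted p = 0.0233). Ikbke rose 2.00-fold (adjusted p = 0.00444) from a level that was above background on 1 sham array. The IkB kinase subunits Chuk, Ikbkb and Ikbkg showed 0.927-fold, 1.33-fold and 0.964-fold, and none passed the adjusted p.

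Of 12 measured genes known as NF-kB targets, 8 were called and 9 passed the adjusted p. Their median was 3.69-fold, against 1.80-fold for the 10 factors. Cxcl2, a chemokine for neutrophils, was 12.8-fold higher (95% interval 8.59 to 19.2, adjusted p = 8.37e-10), Il1b was 9.34-fold (adjusted p = 6.81e-07), Ptgs2, the inducible cyclooxygenase, was 6.38-fold (adjusted p = 1.32e-07), and Ccl2, a chemokine for monocytes, was 6.23-fold higher (adjusted p = 7.25e-09). Sele, which encodes E-selectin and is counted among the 8, was well above background on 4 MI arrays and on 1 sham array, so that it entered the test through the group in which it was high. Sod2 showed 0.994-fold (95% interval 0.728 to 1.36).

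The log2 signal of Stat3 measured 13.78, 13.23, 13.89 and 13.47 in MI mice and 13.31, 12.54, 13.30 and 13.04 in sham-operated mice. MI mouse 2 lay below 2 of the 4 sham-operated mice, and the groups overlapped. The difference was 1.46-fold (95% interval 1.06 to 2.01), with an adjusted p of 0.160 and an exact permutation p of 0.0857. A dimmer Stat3 probe, for another RefSeq transcript of the gene, gave 1.80-fold (adjusted p = 0.0435).

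In the pathway from interleukin-6 family cytokines to Stat3, 3 of 12 ligand, receptor and kinase genes were called, and all of these were ligands. Il6 was 10.2-fold higher (95% interval 6.10 to 16.9, adjusted p = 2.3e-07), Il11 was 4.88-fold (adjusted p = 7.21e-08) and Osm 2.46-fold higher (adjusted p = 0.00103). Osmr, the receptor of oncostatin M, rose 1.90-fold (adjusted p = 0.00755) and Lif rose 1.80-fold (adjusted p = 0.0445). The common receptor subunit Il6st showed 1.03-fold and the kinases Jak1, Jak2, Jak3 and Tyk2 between 1.09-fold and 1.32-fold, none with an adjusted p under 0.05. Among 11 STAT3 targets, 6 were called with a list median of 2.22-fold. Socs3, the feedback inhibitor of the pathway, was 4.43-fold higher (adjusted p = 1.45e-07), Il4ra 2.82-fold, Timp1 2.47-fold, Myc 2.35-fold, Junb 2.23-fold and Pim1 2.22-fold.

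Irf1 measured 11.60, 10.68, 11.85 and 10.69 in MI mice and 10.44, 10.05, 10.51 and 10.22 in sham-operated mice. The MI mice formed a high pair, mice 1 and 3, and a lower pair, mice 2 and 4, that stood just above the highest sham-operated mouse. The groups did not overlap, and the difference was 1.87-fold (95% interval 1.31 to 2.66, adjusted p = 0.0230, exact permutation p = 0.0286). The adjusted p rose above 0.05 without MI mouse 1 (0.0906), MI mouse 3 (0.109) or sham-operated mouse 2 (0.0518). Without MI mouse 2 or MI mouse 4 the log2 fold change was 1.08 and 1.07 and both thresholds were passed. Another Irf1 probe was well above background on 2 arrays and was not tested.

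Of 12 genes known as IRF1 targets 3 were called, namely Socs1 (2.80-fold, adjusted p = 1.22e-05), Cd274, which encodes PD-L1 (2.66-fold, adjusted p = 5.29e-05), and the peptide transporter Tap1 (2.02-fold, adjusted p = 0.00547). The immunoproteasome genes Psmb8, Psmb9 and Psmb10 showed 1.18-fold, 0.833-fold and 1.04-fold, and none passed the adjusted p.

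The C/EBP factors showed the smallest differences of the set. Cebpb measured 13.26, 13.37, 13.44 and 13.94 in MI mice and 12.89, 12.93, 13.58 and 13.18 in sham-operated mice. Sham-operated mouse 3 stood above 3 of the MI mice. The difference was 1.28-fold (95% interval 0.936 to 1.76, adjusted p = 0.395, exact permutation p = 0.171). Cebpd measured 14.46, 14.10, 14.82 and 14.23 in MI mice and 13.95, 13.75, 14.29 and 13.98 in sham-operated mice. The groups overlapped here as well, with 1.33-fold (95% interval 0.977 to 1.81, adjusted p = 0.299, exact permutation p = 0.0857). Both intervals included no change and excluded a change of over 2-fold on this scale.

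Of 10 measured C/EBP targets, 3 were called and 5 passed the adjusted p. Arg1 was 3.19-fold higher (adjusted p = 3.25e-05), and the acute phase genes Hp and Saa3 were 2.59-fold (adjusted p = 0.000811) and 2.17-fold higher (adjusted p = 0.00652). Lcn2, a secreted acute phase protein, showed 1.56-fold (95% interval 1.06 to 2.31, adjusted p = 0.174). Ltf passed the adjusted p at 1.98-fold and was well above background on 2 sham arrays. The lists share genes. Csf3r, Camp and Ltf are also counted among the neutrophil markers, Csf3r among the PU.1 targets and Lcn2 among the STAT3 targets.

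Spi1 had the largest fold change of the 10 on the authors' scale, from a signal near background in sham-operated mice. It measured 6.23, 5.92, 6.29 and 6.06 in MI mice and 5.20, 4.70, 3.82 and 4.40 in sham-operated mice. The MI mice lay within a narrow range above all sham-operated mice, which were spread over more than 1 log2 unit. The means were 6.12 ± 0.17 and 4.53 ± 0.58 (SD, n = 4 each), a 3.02-fold difference (95% interval 2.13 to 4.27, adjusted p = 5.29e-05, exact permutation p = 0.0286). In the slide rows it was 2.18-fold and 4.18-fold. The scale adds a constant to each signal, which compresses the change of dim probes. The constant was 3.16 in sham-operated mouse 3, the lowest mouse for both Rel and Spi1, and reached 19.6 on other arrays. The direction was the same under all scalings in which Spi1 and Rel were tested, but the size of their change depended on the scaling. In the authors' deposited values neither gene was tested. With a spike-in shift alone, which adds no constant, Spi1 was 4.84-fold and Rel 2.36-fold higher. With constants between 166 and 257 from a refitted vsn model, Spi1 was 1.20-fold (adjusted p = 0.0712) and Rel 1.06-fold higher.

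Of 11 genes known as PU.1 targets, 4 were called. They were Ncf1, a subunit of the phagocyte oxidase (2.67-fold, adjusted p = 4.93e-05), the adaptor Tyrobp (2.30-fold, adjusted p = 0.000648, with 3 MI mice), the Fc receptor Fcgr3 (2.29-fold, adjusted p = 0.000244) and Csf2ra (2.09-fold, adjusted p = 0.00164). Csf1r, the receptor of macrophage colony stimulating factor, showed 0.894-fold (95% interval 0.643 to 1.24) and Adgre1, a surface marker of macrophages, showed 0.845-fold (95% interval 0.609 to 1.17). Both are also counted among the markers of monocytes and macrophages.

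**Figure D2:**
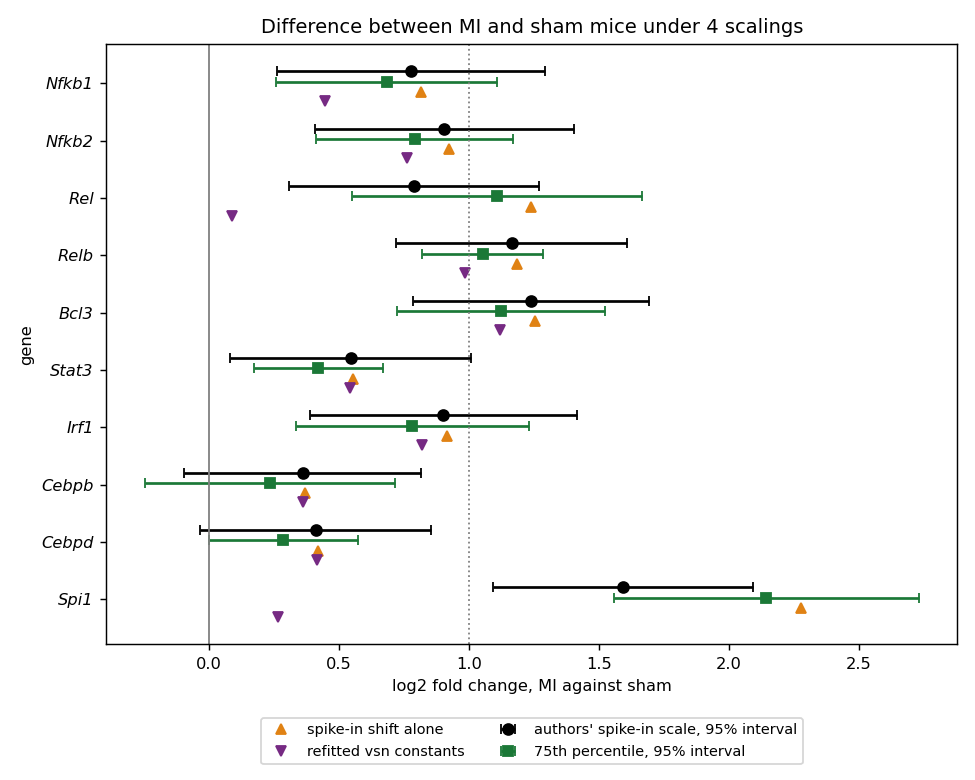
Log2 fold change of MI against sham-operated mice (horizontal axis) for each factor, on the authors' spike-in scale (circles) and after scaling to the 75th percentile (squares), both with 95% intervals, and as single values with a spike-in shift alone (upward triangles) and with refitted vsn constants (downward triangles). The dotted line marks 2-fold. All values lie above 0, and the 4 values of a gene differ most for Rel and Spi1.

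The spread within the groups was in part shared by the whole array. In MI mouse 2 the median of all probes was 0.33 below the group mean on the log2 scale, and 7 of the 10 factors had their lowest MI value in this mouse. In MI mouse 3 the median of all probes was 0.16 above the group mean, and 7 factors had their highest MI value there. Sham-operated mouse 2 was the lowest of its group in 7 factors, with a median over all probes that was 0.19 below the group mean. Most factors moved with these shifts, whereas Rel was highest in mouse 2 of each group.

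When each array was instead scaled to its 75th percentile, the shared shift was removed, and no constant was added to the signals. The median log2 fold change of all tested probes moved from 0.12 to -0.02. On this scale 8 of the 10 factors had an adjusted p under 0.05 and groups that did not overlap, where 10.1% and 12.7% of all genes did so, and 4 passed both thresholds against 3.77% of all genes. Rel and Spi1 are among these. With the spike-in shift alone, which also adds no constant, 4 factors passed both thresholds as well, and 4 passed the adjusted p. The parts of the shift and of the constant in these counts were not tested. Of the 8 factors well above background on all arrays, 2 (Relb and Bcl3) passed both thresholds, as on the authors' scale, and 6 had an adjusted p under 0.05 and groups that did not overlap. The fold changes were 1.604 for Nfkb1 (adjusted p = 0.0365), 1.73 for Nfkb2 (0.0143), 2.16 for Rel (0.0171), 2.07 for Relb (0.000648), 2.18 for Bcl3 (0.00432), 1.34 for Stat3 (0.0302), 1.72 for Irf1 (0.0271) and 4.42 for Spi1 (0.00137). Nfkb1 and Stat3 passed the adjusted p here at a smaller fold change than on the authors' scale. The median SD of the factors in MI mice was 0.30 on the authors' scale and 0.23 after scaling to the percentile. Cebpb (1.18-fold, 95% interval 0.843 to 1.64) and Cebpd (1.22-fold, 95% interval 0.999 to 1.49) did not pass under either of these scalings.

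**Figure D3:**
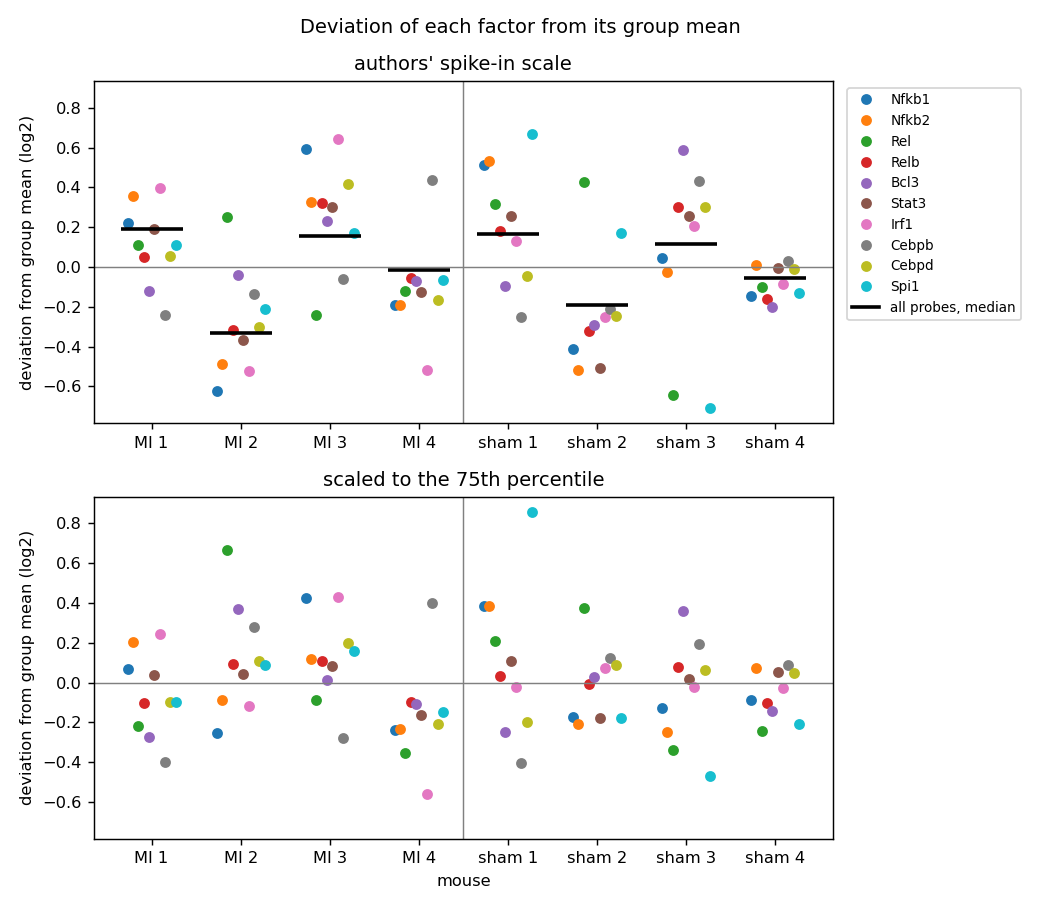
Deviation of each factor from its group mean in log2 units (vertical axis) in each mouse, on the authors' spike-in scale (top) and after scaling to the 75th percentile (bottom). Black bars give the median deviation of all probes, which is lowest in MI mouse 2 at -0.33, and the deviations of most factors in this mouse move towards 0 in the lower panel.

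Over the 8 mice, the deviations of the factors from their group means were compared in 45 pairs. Their correlations had a median r of 0.43 on the authors' scale and 0.16 after scaling to the 75th percentile, with the shift of the whole array shared by all points in the former. Nfkb1 and Nfkb2 formed the most alike pair on both scales (r = 0.94 and 0.80). Rel and Bcl3 were the least alike on the authors' scale (r = -0.85) and Cebpb and Nfkb2 after scaling to the percentile (r = -0.88). Of 14023 other genes, the one whose deviations were most like those of a factor was Vps37c for Nfkb1, Glul for Nfkb2, Ifi27l2b for Rel, Rbm39 for Relb, Tnfsf9 for Bcl3, Kansl2 for Stat3, 6820431F20Rik for Irf1, Bcl10 for Cebpb, Zfp568 for Cebpd and Oas1e for Spi1, with r between 0.948 and 0.998. After scaling to the percentile, Bcl10 was still the most alike gene for Cebpb (r = 0.996), and all other factors had a different one, so these names mostly depend on the scaling. Each name was the highest of 14023 correlations over 8 arrays and is a description only. On the authors' scale the share of genes with r over 0.9 ran from 0.0214% for Rel to 22.3% for Stat3.

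The factors were also compared with 26 other factors of the C/EBP, STAT, IRF and ETS families and Rela. Of these, 3 were called, and the median was 1.33-fold against 1.80-fold in the 10 factors. Cebpe, a factor of granulocyte development, was 3.63-fold higher (95% interval 2.70 to 4.87, adjusted p = 4.64e-07), and Irf5 and Irf7 were both 2.51-fold higher (adjusted p = 8.41e-05 and 0.000248). Ddit3 and Irf9 rose 1.66-fold each (adjusted p = 0.0315 and 0.0356). None of the 26 fell past the adjusted p.

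In whole tissue, a gain of cells that express a gene and a gain of RNA per cell cannot be told apart. Markers of neutrophils were higher in MI mice, with 6 of 9 measured markers called and a median of 6.89-fold. The log2 of their summed signal was 17.6 to 18.3 in the MI group against 15.9 to 16.3 in the sham group. Retnlg was 19.0-fold and Cxcr2 9.90-fold higher, and Ngp, which was not well above background on any sham array, was at least 5.30-fold higher (adjusted p = 9.43e-06). S100a8 was 8.09-fold and S100a9 6.89-fold higher, and Csf3r, with a bright probe, showed 1.06-fold. Of 9 measured markers of monocytes and macrophages 1 was called, Ccr2 at 2.22-fold, and the median was 0.974-fold. The log2 of their summed signal overlapped, with 13.4 to 14.3 in MI mice and 13.8 to 14.3 in sham-operated mice. Ptprc, which encodes the leukocyte antigen CD45, was 2.14-fold higher (adjusted p = 0.000906) and Gapdh showed 1.11-fold (adjusted p = 0.768). No marker of T cells, B cells, NK cells, cardiomyocytes, fibroblasts or endothelial cells passed both thresholds. Of 7 measured T cell markers, 3 passed the adjusted p alone, namely Cd3d (1.87-fold, adjusted p = 0.00598), Il7r (1.71-fold, 0.0369) and Lck (1.57-fold, 0.0429), and the median was 1.16-fold. The log2 of the summed T cell signal overlapped between the groups. Of 4 measured B cell markers, Cd79b passed the adjusted p (1.66-fold, 0.0321), and the median was 1.63-fold. The log2 of the summed B cell signal was 8.04 to 8.43 in the MI group against 7.27 to 7.79 in the sham group. The medians were 1.14-fold for the 2 measured NK cell markers, 0.949-fold for the 10 cardiomyocyte, 0.753-fold for the 8 fibroblast and 1.15-fold for the 8 endothelial markers, and none of these passed the adjusted p. The cardiomyocyte markers were well above background on all arrays, as the labelled tissue would have it. Of 6 smooth muscle and pericyte markers Acta2 was called (2.75-fold). The part of these cell markers in the changes of the factors was not tested.

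**Figure D4:**
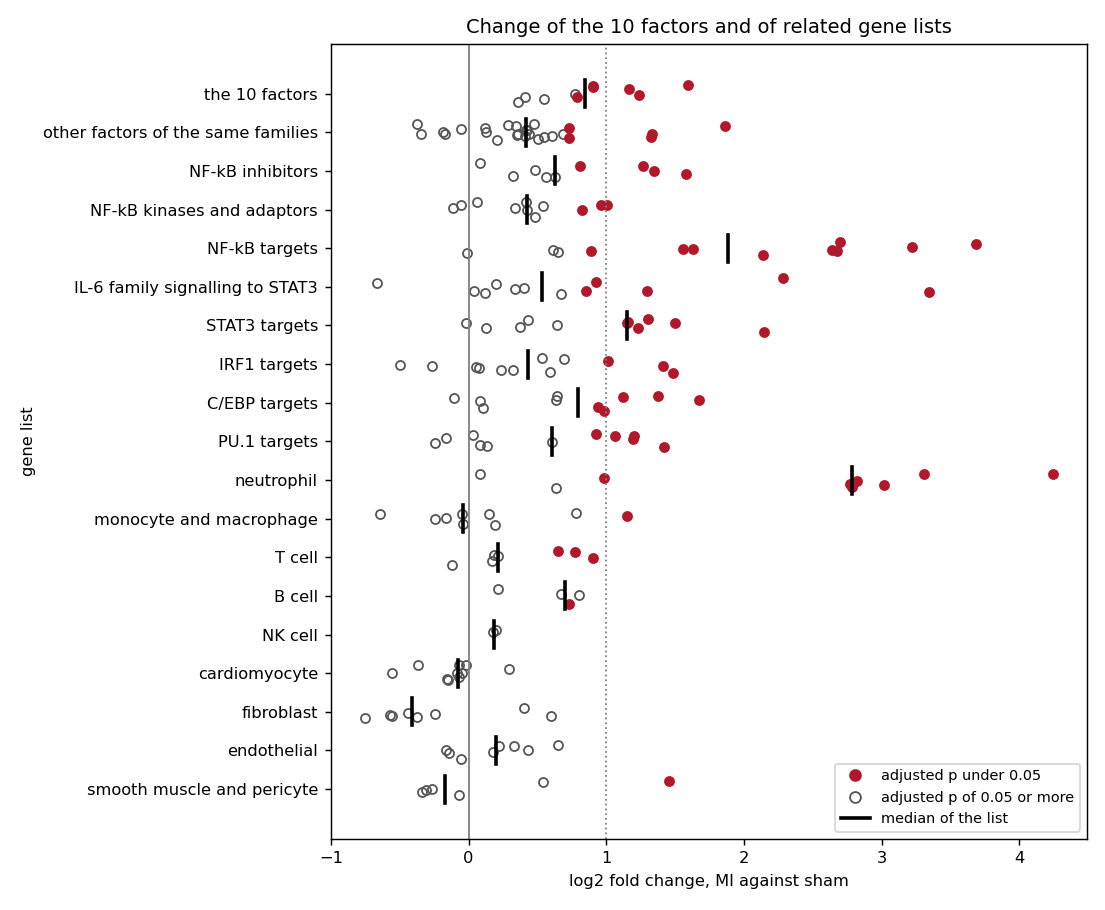
Log2 fold change of MI against sham-operated mice (horizontal axis) for the 10 factors, for lists of related genes and for markers of cell types. Each point is a gene, filled where its adjusted p was under 0.05, and the black bar is the median of the list. NF-kB targets and neutrophil markers reach the largest changes, with medians of 3.69-fold and 6.89-fold against 1.80-fold for the factors.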

How the data were processed

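Ventricular RNA of 4 MI mice and 4 sham-operated mice was measured on 8 arrays of 1 slide, with groups taken from the sample labels. The deposited intensities were, per the file headers, background-subtracted processed signals from Feature Extraction 11.0.1.1, without normalization between arrays. From these the authors made the deposited log2 values, with limma and vsn on spike-in probes. Matching both gave the shift and additive constant of each array (largest misfit 5.02e-09), which were applied here to all processed signals. Outlier spots were left out and spots of a probe averaged. Probes well above background on at least 4 arrays were tested with limma 3.58.1 (R 4.3.3), without covariates. Calls needed a fold change over 2 and an adjusted p under 0.05, and single values were compared by exact permutation of the 70 label orders. The share of spots well above background was 58.6% to 66.4% per array, 1 spot was saturated in all, and the number of arrays limits the precision. Lists are described by counts. Promoter windows came from RefSeq (GRCm38.p6), and the set of windows held none for Cebpd, Nfkb1, Relb and Spi1. Other steps ran in Python 3.11.15 (pandas 2.3.3, scipy 1.17.1, numpy 2.4.6), and figures in matplotlib 3.10.9.

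The genes, the lists and the tests were chosen with earlier results of these data known. The text names the 10 factors, genes of the lists, Ptprc, Gapdh and, for each factor, the gene with the most similar deviations. Alternatives were other scalings (75th percentile, spike-in shift, refitted vsn, quantile, normexp with an offset of 50, the authors' values), other detection filters, the mean over probes, significance analysis of microarrays, an unmoderated test, blocks for slide row and replicate number, and each mouse left out. The slide rows alone, the comparison of mice after percentile scaling and the kappaB consensus were chosen after seeing the data.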

Additional observations from a re-analysis of the deposited data

How the results depend on the processing

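The direction was the same in all 216 comparisons of a single factor with an alternative. Part of these could not differ in direction. With other detection filters, the unmoderated test or blocks, and in the authors' deposited values, the log2 fold changes were those of the main fit. In 201 of the 216 the call on both thresholds was also unchanged, 9 lost the call and 6 gained it. The adjusted p alone is not counted there. Of 22 alternatives, it was under 0.05 in 21 for Relb and 20 for Bcl3. For Nfkb2 and Irf1 it was under 0.05 in 13 each, and for Nfkb1 in 8. On the authors' scale 3 factors passed both thresholds and 6 the adjusted p, with 1184 probes called in all. In the authors' deposited values the counts were 2, 4 and 988, and Rel and Spi1 were not tested there. With refitted vsn constants the counts were 1, 2 and 333. With normexp and quantile normalization 1 factor and 533 probes were called, and 9 factors passed the adjusted p. Cebpd (adjusted p = 0.0206) passed it in this setting alone. The constants or offset lower the fold change of dim probes by construction. On the authors' scale, at the 75th percentile and with refitted vsn constants, Cxcl2 was 12.8-fold, 17.5-fold and 2.96-fold higher. In this order Cxcr2 was 9.90-fold, 11.8-fold and 2.82-fold higher, and Tap1 2.02-fold, 2.03-fold and 1.25-fold. The bright probe of S100a8 gave 8.09-fold, 7.43-fold and 7.95-fold. Under vsn the log2 fold change of Relb was 0.99 and that of Spi1 0.27. The unmoderated test called 1 factor, gave an adjusted p under 0.05 to 1, and called 578 probes. Bcl3 and Spi1 then had adjusted p of 0.0526 and 0.065. With no detection filter and with significance analysis of microarrays 3 factors passed the adjusted p. In slide row 1 alone 1 factor was called, 1 passed the adjusted p and 523 probes were called, and in slide row 2 alone 2 factors passed the adjusted p, where each row holds 4 of the 8 arrays. Relb (adjusted p = 0.209) and Spi1 (0.19) were not called in row 1, nor Bcl3 (0.0579) in row 2. The cause of the other changes was not tested.

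With 1 mouse left out, between 3 factors and 5 (without MI mouse 2) passed both thresholds, between 3 (without MI mouse 1) and 7 passed the adjusted p, and between 1046 and 1461 probes were called. Mice of the same number did not deviate together beyond a correlation of 0.292, and in 1 pair it was 0.0114, so the numbers were not taken as pairs. For numbers 1 to 4 the correlations were 0.238, 0.292, 0.143 and 0.0114, all positive. The mice numbered 1 and those numbered 2 were each other's best partners, and sham-operated mouse 3 correlated best with MI mouse 3. MI mouse 3 and both mice numbered 4 correlated best with a mouse of another number. With the replicate block, 3 factors were called, 8 passed the adjusted p and 1155 probes were called. The factors that passed the adjusted p in addition were Nfkb1 (0.0208) and Stat3 (0.0217). Log2 signals of Rel and Spi1 near the background limit the precision of their fold changes.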
